A study of Bos taurus with 16 samples.

Results

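Within the methionine-rich treatment, pools made of 3 or 4 blastocysts were compared with pools made of 1 or 2. The pools M5.1, M5.2, M6.1 and M7.2 held 3 blastocysts each and M6.2 held 4, and they are called the larger pools. The smaller pools were M7.1 and M8.1, with 2 blastocysts each, and M8.2, with 1. The 5 larger and 3 smaller pools make up 8 of the 16 in the series, and the numbers of blastocysts come from the study's supplementary table, not from the sample labels, and the design text of the series gives 2 to 4 per pool.

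The study sequenced amplified RNA of blastocysts from 8 Holstein cows, 4 fed a control diet and 4 a methionine-rich diet from calving until the embryos were collected, with 2 pools from each cow. The methionine-rich diet was the same basal ration with rumen-protected methionine added, and all cows were superovulated, inseminated with 1 of 2 sires and flushed, so the embryos of a pool shared a dam. The labels call the tissue IVF embryos, whereas the methods describe embryos flushed from inseminated cows. Expanded blastocysts of excellent or good grade were taken. In what follows, the order of values is M5.1, M5.2, M6.1, M6.2 and M7.2 for the larger pools and M7.1, M8.1 and M8.2 for the smaller ones.

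The number of blastocysts cannot be told apart from the dam or from the RNA. Cows 5 and 6 gave only larger pools, cow 8 only smaller ones, and cow 7 alone gave both. M8.1 and M8.2 had the lowest concentrations of amplified RNA of the 8 pools, with M6.2 and M6.1 next, and M5.1 and M5.2 the highest. The order of RNA quality was different, with M8.2 highest and M7.1 lowest. Nothing in the labels says that the pools of a cow are independent, so p-values over pools measure the spread between these pools. Fewer cells of a type and less RNA per cell cannot be told apart in such pools.

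A blastocyst holds an outer epithelium, the trophectoderm, which pumps fluid into its cavity and later forms the placenta, and an inner cell mass that separates into epiblast and hypoblast (primitive endoderm). Each embryo is male or female, so a pool holds transcripts of both sexes only when embryos of both went into it. XIST, the RNA that coats the inactive X chromosome, marks female cells, and genes of the Y chromosome mark male cells. With few cells the RNA must be amplified before sequencing, and transcripts present in few copies can then be lost or overrepresented in a library.

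Totals lay between 5941973 and 7826542 counts, with medians of 7257007 in the larger and 7405798 in the smaller pools (two-sided exact permutation test of the means, p = 0.286), so a floor of 3 counts in a pool corresponded to 0.383 to 0.505 CPM (counts per locus after every pool was brought to a common total). Of 22358 loci, 15966 had a count in at least 1 of the 8 pools. Counts of any 2 of the pools differed far beyond sampling noise, by a chi-square of at least 80.5 per degree of freedom. Counts for some genes that most cells use were low in all 8 pools, such as GAPDH, at most 8.18 CPM for the higher of its 2 loci, and YWHAZ, with 0.132 to 1.93 CPM in the larger pools and 0.256 to 3.65 CPM in the smaller ones, so a count near 0 does not show that a transcript was absent.

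Transcripts of both sexes were mixed in every larger pool. All 5 larger pools held transcripts of both XIST and the Y chromosome, at 100 or more counts of each, whereas 1 of the 3 smaller pools did. XIST was at 201, 172, 246, 52 and 667 CPM in the larger pools and 813, 425 and 274 CPM in the smaller ones. The summed level of 7 Y-linked genes, EIF2S3Y, ZRSR2Y, DDX3Y, UTY, USP9Y, ZFY and EIF1AY, was 139.6, 80.8, 209, 252 and 173 CPM in the larger pools and 0.894, 406 and 1.35 CPM in the smaller ones. M7.1 and M8.2 thus had 7 and 10 counts of Y transcripts beside 6360 and 2027 counts of XIST, while M8.1, with 2 blastocysts, had 2916 and 3056.

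**Figure D1:**
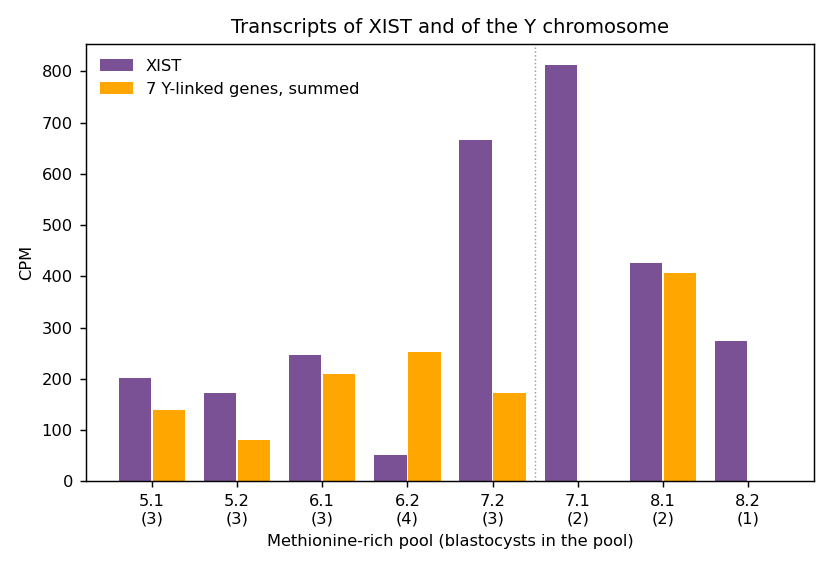
CPM of XIST (purple bars) and the summed CPM of 7 Y-linked genes (orange bars) in each methionine-rich pool, with the number of blastocysts in parentheses and a dotted line between the larger and the smaller pools. Y transcripts were 80.8 to 252 CPM in the 5 larger pools, 406 CPM in M8.1, and 0.894 and 1.35 CPM in M7.1 and M8.2.

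The difference in the share of pools with both kinds of transcript did not pass the test (two-sided exact permutation test, p = 0.214). A pool of 1 blastocyst, such as M8.2, can hold only 1 sex, so the outcome of such pools was fixed beforehand. A pool of more embryos is also more likely to hold both sexes, so no conclusion is drawn from this difference. The same exact test gave p = 0.25 for the mean level of XIST and p = 0.821 for that of the Y-linked genes. The threshold of 100 counts was chosen after the values were seen. Among the control pools, which held 1 or 2 blastocysts, 0 of 2 pools of 1 and 2 of 5 pools of 2 held both, so that over 15 pools the counts were 0 of 3 with 1 blastocyst, 3 of 7 with 2 and 5 of 5 with 3 or 4. The pool of the control treatment whose reads seldom fell on exons (C3.2) was left out of these counts. ZRSR2Y and EIF2S3Y, genes of a splicing factor and of a translation initiation factor subunit, carried most of the Y signal. ZRSR2Y was at 77.9, 26.8, 27.4, 161 and 126 CPM in the larger pools and 0.511, 248 and 0.81 CPM in the smaller ones, and EIF2S3Y at 51.1, 52.1, 173, 80.8 and 42.5 CPM in the larger pools and 0.383, 137 and 0.54 CPM in the smaller ones. UTY, a histone demethylase, was low, with 2.62, 1.45, 8.58, 4.21 and 1.06 CPM in the larger pools and 0, 0.557 and 0 CPM in the smaller ones. The range of UTY in the larger pools lay above that in the smaller ones, as it did for 5.19% of all loci tested. The estimate did not pass (log2 fold change -3.95, edgeR quasi-likelihood adjusted p = 0.471). SRY and HSFY2 had 0 counts in all 8 pools. TSPY, a family of many copies for which counting is uncertain, had 9.27 CPM in M6.1 and at most 0.974 CPM in the others.

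The larger pools had more loci detected on average, but the groups overlapped and the difference did not pass the test. Loci with at least 1 count numbered 12096, 11215, 10558, 11934 and 11137 in the larger pools and 10918, 10225 and 10569 in the smaller ones. The means were 11388 ± 629 (SD, n = 5) and 10571 ± 347 (SD, n = 3), a difference of 817 (two-sided exact permutation test over the 56 assignments of 8 pools to 5 and 3, p = 0.107; the smallest p it allows is 0.0357). M6.1 alone among the larger pools fell within the range of the smaller ones. Within cow 7 the pool of 3 blastocysts had 219 more loci than the pool of 2.

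Raising the bar for detection widened the relative gap. Loci with at least 10 counts numbered 9338, 8485, 8047, 8678 and 8376 against 8157, 7678 and 7735, a difference of 728 (exact permutation p = 0.0714). At 1 CPM or more the difference was 890, and after each pool was thinned to the smallest total it was 898, with the same exact permutation p of 0.0714 for both. M7.1, the deepest library, kept fewer loci than every larger pool but M6.1 under each of these counts. The 7 control pools had 10259 to 11580 loci with a count, a range that held M5.2, M6.1, M7.2, M7.1 and M8.2.

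**Figure D2:**
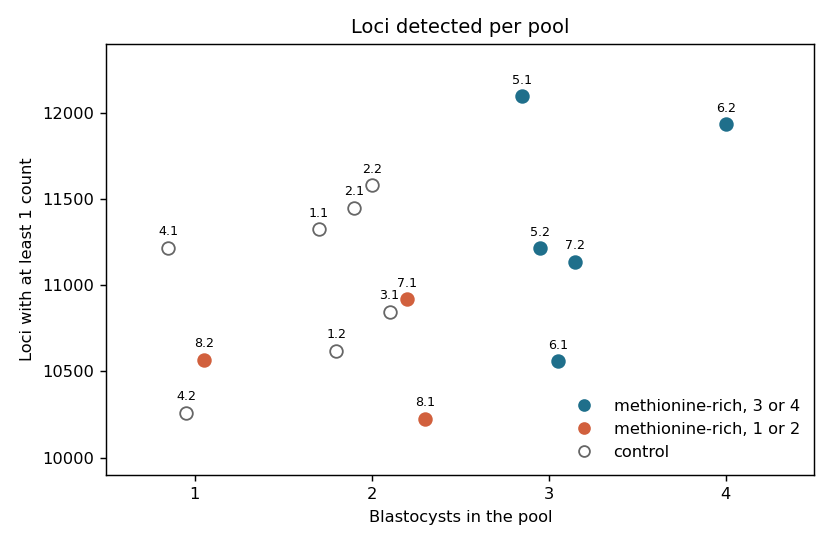
Number of loci with at least 1 count (vertical axis, not starting at 0) against the number of blastocysts in the pool, with 1 point per pool, blue and orange for the methionine-rich treatment and open for the 7 control pools; points are shifted sideways for legibility. The larger methionine-rich pools lie between 10558 and 12096 loci and the smaller ones between 10225 and 10918.

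The most abundant loci took a larger share of the counts in the smaller pools. The 10 most abundant loci held 9.56, 10.5, 9.62, 11.2 and 11.0% of the counts in the larger pools and 14.4, 12.4 and 14.3% in the smaller ones. These ranges did not overlap, and the difference of 3.31 percentage points reached the smallest p that the exact permutation test allows, 0.0357. The 1000 most abundant loci held 74.7 to 80.6% against 81.2 to 83.7%, again without overlap and with the same exact p of 0.0357. In the 7 control pools, which held 1 or 2 blastocysts, the 10 most abundant loci held 10.4 to 14.2%, with a median of 11.4%. The 1000 most abundant held 76.5 to 81.3% there, and the median of 80.5% lay within the range of the larger pools. For the 100 most abundant loci, the main measure of the 3, the shares were 35.4, 40.8, 39, 42.9 and 42.4% against 48.5, 41.8 and 44.7%, and the groups overlapped through M8.1 (40.1 ± 3.01 and 45.0 ± 3.34%; SD, n = 5 and 3; exact permutation p = 0.107).

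The likeness of a pool to the others did not separate the groups. The Spearman correlation, across loci, of the log2 CPM of a pool with the mean of the other 7 was 0.894, 0.889, 0.828, 0.903 and 0.898 for the larger pools and 0.857, 0.85 and 0.822 for the smaller ones (exact permutation p = 0.107 for the difference of 0.0392). Between 2 larger pools the correlation ranged from 0.775 to 0.855 over 10 pairs, and between 2 smaller pools from 0.745 to 0.769 over 3 pairs. Loci are not independent replicates, so these correlations describe the libraries. M6.1 and the 2 pools of cow 8 were the least like the rest.

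Single pools held transcripts that the others lacked, in both groups. A locus was counted as confined to a pool when the pool had at least 10 counts of it and at least 90% of its CPM over the 8 pools. There were 203, 105, 201, 123 and 85 such loci in the larger pools and 133, 119 and 133 in the smaller ones (143 ± 55.2 and 128 ± 8.08; SD, n = 5 and 3; exact permutation p = 0.679). The larger pools thus held both the most, in M5.1 and M6.1, and the fewest, in M7.2, and the order of the group means reversed when 30 counts were required. Of the confined loci of a pool, 31.8 to 39.1% had at least 10 counts in a control pool.

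The confined loci of highest CPM were in M6.1, M8.1 and M8.2. The highest reached 321 CPM in M6.1, 215 CPM in M8.2 and 165 CPM in M8.1, and 44.6 to 70.8 CPM in the other 5 pools. The annotated loci with the highest CPM in M8.2 were HEATR7A at 215 CPM, NALCN, a sodium leak channel, at 199 CPM, and GPR133, an adhesion receptor, at 199 CPM. M8.1 held PLAUR, the urokinase receptor, at 165 CPM, ZNF341, a zinc finger factor, at 152 CPM and C25H16orf54 at 126 CPM, and M6.1 held FAM105A at 189 CPM, the neuronal microtubule protein gene MAP2 at 143 CPM and NUP210L, related to a nuclear pore protein, at 136 CPM. These levels exceeded those of the confined loci in the other pools, whatever their size.

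The leading confined loci of the other 5 pools were at lower CPM. M5.1 held the calcium channel gene CACNA1C at 57.5 CPM. M5.2 held MYPN, a sarcomere protein gene, at 52.9 CPM, TRIM14 at 40.9 CPM and OAZ3, a testis antizyme, at 40.1 CPM. In M6.2 the leading loci were C18H19orf68 at 44.6 CPM, the phosphatase gene DUSP16 at 34 CPM and the sialidase gene NEU3 at 30 CPM. Of the pools of cow 7, M7.2 held the cartilage matrix gene MATN3 at 70.8 CPM, PITPNM2 at 40.9 CPM and the kinase gene STK33 at 28.4 CPM, and M7.1 held the palmitoyltransferase gene ZDHHC20 at 62.5 CPM, IGSF6 at 59.2 CPM and EHBP1L1 at 47.1 CPM.

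The converse, a locus with at least 10 counts in each of 7 pools and 0 in the remaining pool, was counted as missing. There were 0, 0, 38, 1 and 7 missing loci in the larger pools and 8, 39 and 22 in the smaller ones (exact permutation p = 0.25). Most were thus missing from M6.1, M8.1 or M8.2. TSR1, needed to mature the small ribosomal subunit, was at 0 in M6.1 and at 87.4, 9.9, 16.3, 16.3, 13.3, 121 and 4.19 CPM in M5.1, M5.2, M6.2, M7.2, M7.1, M8.1 and M8.2. ZNF564, a zinc finger gene, also had 0 counts in M6.1, and its level was 4.27, 2.9, 0, 9.59 and 11.7 CPM in the larger pools and 60.8, 26.7 and 74.5 CPM in the smaller ones. Its groups thus did not overlap, and 0.861% of all loci tested were higher in the smaller pools in this way.

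In M8.1 the missing loci of highest level elsewhere were RPAP3, which helps to assemble RNA polymerase complexes, and PIF1, a DNA helicase gene. RPAP3 reached 69.6 CPM in M5.1 and 63.6 CPM in M8.2, the other pool of cow 8. In M8.2 they were ZNF614 and SGSM3, in M7.1 MAD2L1BP, which silences the spindle checkpoint, and MIB1, a ubiquitin ligase of Notch ligands, in M7.2 SLC35E4 and NUDT17, and in M6.2 the kinase gene MAP3K5. No larger pool but M6.1 lacked more than 7 such loci.

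**Figure D3:**
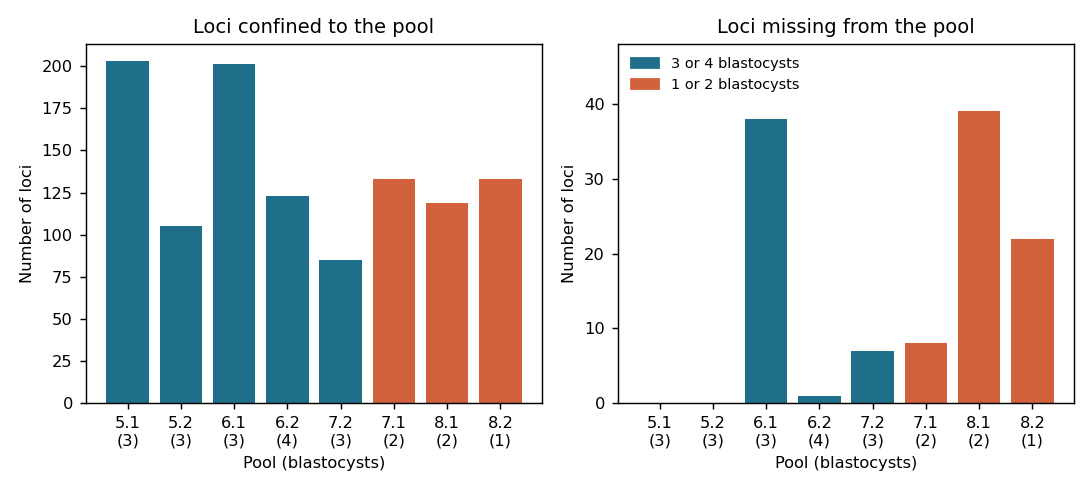
Number of loci confined to each pool (left) and missing from it (right), with the number of blastocysts in parentheses, blue for the larger and orange for the smaller pools. Confined loci ranged from 85 to 203 in the larger and from 119 to 133 in the smaller pools, and 38 loci were missing from M6.1, 39 from M8.1 and 22 from M8.2.

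Across all loci, no gene passed the test between larger and smaller pools. Of 10103 loci whose CPM added up to 8 or more over the 8 pools, edgeR's quasi-likelihood test called 0 (0%) at an FDR under 0.10 with at least a 2-fold difference, the smallest adjusted p being 0.401, and 1061 had an unadjusted p under 0.05. The exact test of edgeR, which the study used, called 136 (1.35%), of which 87 (0.861%) were higher and 49 (0.485%) lower in the smaller pools. DESeq2 called 297 of 8958 loci (3.32%), and limma with voom called 0. The biological coefficient of variation was 0.964.

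Many calls of the exact test rested on single pools, mostly those that were higher in the smaller pools. A single pool held at least 50% of the CPM in 80 of the 136, and at least 90% in 43, with a median of 65.1% in the highest pool against 28.3% over all loci tested. Among the 87 that were higher in the smaller pools, the highest pool was M8.2 in 48, M8.1 in 21 and M7.1 in 18. The groups did not overlap in 64 of the 136 calls. These were 20 of the 87 higher and 44 of the 49 lower in the smaller pools. Over all loci tested, 0.861% were higher and 5.19% lower without overlap. The test chose the calls from the same pools, so these shares only describe them. The number of calls depended on which pools entered. It was 52 without M5.1, 64 without M5.2, 126 without M6.1, 75 without M6.2 and 85 without M7.2. Of the smaller pools, it was 252 without M7.1, 190 without M8.1 and 123 without M8.2.

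Loci whose CPM in the smaller pools lay wholly outside the range of the larger ones were mostly lower in the smaller pools. On the CPM scale 87 loci (0.861%) were higher and 524 (5.19%) lower. After the CPM were divided by the TMM factors, which were 0.838 in M7.1 and 1.34 in M5.1, the counts were 232 higher (2.3%) and 324 lower (3.21%), so the split depended on the scaling. The median log2 fold change (smaller over larger) of all loci tested was -0.02 with TMM and -0.32 with total counts alone, and the fold changes given here are relative to the TMM scale.

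The annotated loci of smallest p whose groups did not overlap included both abundant and scarce transcripts. They are a description of the loci furthest apart, since p chose them, and all 10 had an adjusted p of 0.401 in the quasi-likelihood test. Of the 4 that were higher in the smaller pools, MYO1D, an unconventional myosin, was at 953, 525, 707, 666 and 608 CPM in the larger pools and 1303, 1526 and 1391 CPM in the smaller ones. Its log2 fold change was 1.33, and DESeq2 gave 1.37 ± 0.22 (SE) for it. PRDX1, a peroxiredoxin that reduces hydrogen peroxide, was at 545, 307, 449, 572 and 1022 CPM in the larger pools and 1604, 1491 and 1656 CPM in the smaller ones, a log2 fold change of 1.73 (1.76 ± 0.41 (SE) in DESeq2). Both were near level across the 3 smaller pools. In the control pools MYO1D spanned 306 to 1658 CPM, with a median of 655, and PRDX1 715 to 1765 CPM, with a median of 1301. For MYO1D, C2.2 was at 1658 CPM and the other control pools at 797 CPM or less. No control value of either gene lay within the range of the smaller pools.

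A histone gene and C16H1orf55 were also higher in the smaller pools. HIST2H2AA4, a replication-dependent histone H2A gene with near-identical copies whose reads cannot be assigned with certainty, was at 66.1, 76.8, 77.8, 53 and 115 CPM in the larger pools and 166, 225 and 347 CPM in the smaller ones. C16H1orf55 was at 174, 131, 124, 143 and 99.5 CPM in the larger pools and 232, 243 and 287 CPM in the smaller ones. M8.2, with 1 blastocyst, was the highest pool for both. The control pools spanned 59.1 to 533 CPM, with a median of 274, for HIST2H2AA4 and 72.3 to 318 CPM, with a median of 159, for C16H1orf55.

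The other 6 were lower in the smaller pools. CBX5, the heterochromatin protein HP1 alpha, was at 387, 214, 352, 306 and 176 CPM in the larger pools and 56.1, 95.3 and 41.2 CPM in the smaller ones, a log2 fold change of -1.86 (-1.82 ± 0.39 (SE) in DESeq2), and the control pools spanned 11.2 to 463 CPM, with a median of 109. UBXN6, a cofactor of the segregase VCP, was at 41.8, 25.1, 128, 62.3 and 49.8 CPM in the larger pools and 5.62, 4.45 and 3.65 CPM in the smaller ones. C23H6orf47 was at 44.9, 48.2, 68.8, 105 and 76.4 CPM in the larger pools and 2.3, 0.139 and 2.84 CPM in the smaller ones, and its control values, 22.6 to 329 CPM, with a median of 102, all lay above those of the smaller methionine-rich pools. UBXN6 too was higher in each of the 7 control pools, at 9.07 to 84.5 CPM, with a median of 43.7, than in the 3 smaller pools.

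The remaining 3 loci were near the floor in the smaller pools. ACBD4, an acyl-CoA binding protein gene, was at 19.3, 25.2, 8.45, 6.23 and 41.8 CPM in the larger pools and 0.256, 0.139 and 0.675 CPM in the smaller ones. EVI5, which acts on Rab GTPases, was at 21.4, 14.6, 8.45, 31 and 10 CPM in the larger pools and 0, 0.696 and 0.135 CPM in the smaller ones. HARS2, the mitochondrial histidyl-tRNA synthetase, was at 9.65, 9.37, 39.4, 9.26 and 18.2 CPM in the larger pools and 0.894, 0.696 and 0.27 CPM in the smaller ones. In the control pools ACBD4 spanned 0 to 16.3 CPM, with a median of 2.94, EVI5 0.495 to 33.1 CPM, with a median of 11.6, and HARS2 0 to 21.2 CPM, with a median of 13.7. In the exact test with each pool left out in turn, C23H6orf47, ACBD4, UBXN6 and HIST2H2AA4 kept an adjusted p under 0.10 in 8 of 8, EVI5 in 7, PRDX1, CBX5 and HARS2 in 6, MYO1D in 4 and C16H1orf55 in 0, with highest values of 0.101 for EVI5, 0.102 for PRDX1, 0.137 for HARS2, 0.163 for MYO1D and 0.179 for CBX5.

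**Figure D4:**
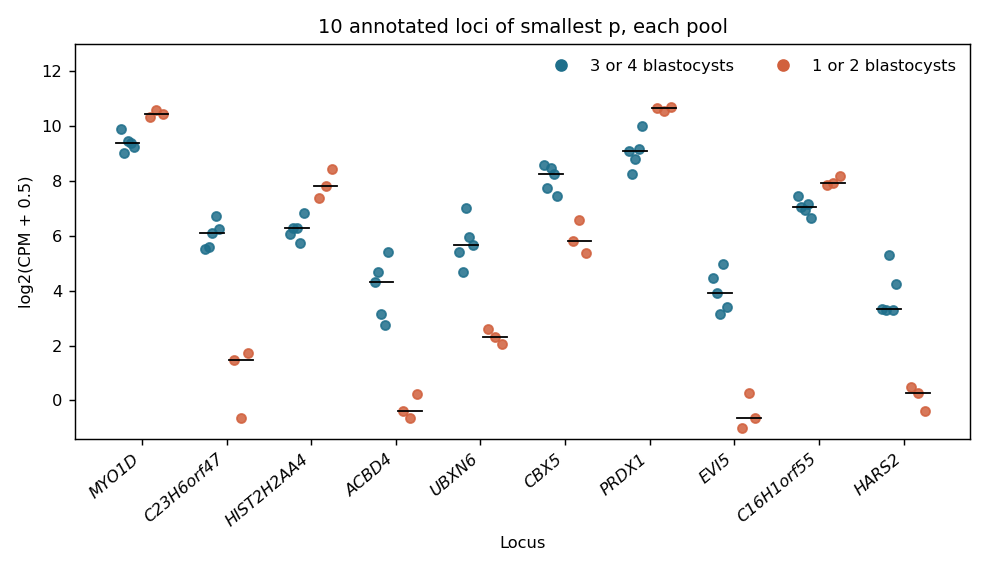
log2(CPM + 0.5) of the 10 annotated loci of smallest p whose groups do not overlap, with 1 point per pool, blue for the 5 larger and orange for the 3 smaller pools, and black lines at the group medians. MYO1D, HIST2H2AA4, PRDX1 and C16H1orf55 are higher in the smaller pools and the other 6 lower.

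Most genes of the trophectoderm had overlapping levels in the larger and the smaller pools. Of 30 loci on a list of trophectoderm genes, 28 were tested, 0 were called (background 0%), 12 had estimates above and 16 below 0, and the median log2 fold change was -0.29 against -0.02 over all loci. The summed CPM of the list ran from 12473 to 18942 in the larger pools and from 11866 to 22706 in the smaller ones. KRT18, a keratin of simple epithelia, was at 4926, 1950.2, 2538, 3389.6 and 2012 CPM in the larger pools and 2974, 1757 and 3552 CPM in the smaller ones.

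The junction protein gene CLDN6 and the transcription factor gene KLF5 were the members whose groups did not overlap, both lower in the smaller pools (background 5.19%). CLDN6 was at 482, 358, 505, 465 and 486 CPM in the larger pools and 179.5, 296 and 168 CPM in the smaller ones (log2 fold change -0.82, quasi-likelihood adjusted p = 0.421). KLF5 was at 149, 211, 208, 149 and 161 CPM in the larger pools and 64.4, 128 and 114 CPM in the smaller ones, and its groups overlapped once the CPM were divided by the TMM factors. The control pools spanned 208 to 752 CPM, with a median of 306 for CLDN6 and 58 to 337 CPM, with a median of 113 for KLF5. Among the regulators that define the lineage, GATA3 was at 10.5 to 73.9 CPM in the larger pools and 18.2 to 36.7 CPM in the smaller ones, TFAP2C at 368 to 479 CPM in the larger pools and 227 to 427 CPM in the smaller ones, and CDX2 was near the floor, at 0.456 to 5.1 CPM in the larger pools and 0 to 2.43 CPM in the smaller ones.

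Other trophectoderm genes of high level showed the same overlap. ATP1B3, a beta subunit of the sodium pump, was at 2323, 1748, 2054, 2146 and 1485 CPM in the larger pools and 1064, 3033 and 1449 CPM in the smaller ones. AQP3, a water channel, was at 661, 1151, 833, 674 and 1129 CPM in the larger pools and 896, 1333 and 854 CPM in the smaller ones. In both, M8.1 was the highest of the 8 pools.

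Among genes of the inner cell mass and epiblast, 17 of 27 loci were tested and 0 were called, with 6 estimates above and 11 below 0 and a median log2 fold change of -0.19. The pluripotency factor NANOG was at 0.689, 2.9, 0.273, 2.02 and 2.13 CPM in the larger pools and 3.71, 6.82 and 36.2 CPM in the smaller ones, and every smaller pool exceeded every larger one (background 0.861%). The estimate of 3.50 on the log2 scale had an adjusted p of 0.401 in edgeR's quasi-likelihood test, and M8.2 had most of the counts. With each pool left out in turn the estimate ranged from 1.94, without M8.2, to 3.95, and DESeq2, which called the locus, gave 3.53 ± 1.03 (SE) with an adjusted p of 0.0375. In the control pools NANOG ran from 0.165 to 27.2 CPM, with a median of 8. MYCN went the other way, at 51.7, 49.2, 27, 31 and 29.2 CPM in the larger pools and 19.2, 10.6 and 17.3 CPM in the smaller ones (background 5.19%; log2 fold change -0.94, quasi-likelihood adjusted p = 0.505).

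The other defining factors of the inner cell mass overlapped between the groups. POU5F1 was at 15.6 to 48.9 CPM in the larger pools and 11.2 to 23 CPM in the smaller ones, and SOX2 at 14.3 to 36.4 CPM in the larger pools and 8.82 to 35.2 CPM in the smaller ones. The most abundant members were DNMT3A, a DNA methyltransferase, at 737, 525, 717, 813 and 746 CPM in the larger pools and 437, 718 and 876 CPM in the smaller ones, and SPIC, an ETS factor, at 320.0, 352, 489.6, 566 and 497 CPM in the larger pools and 327, 491 and 713 CPM in the smaller ones. KLF4 was at 177, 167, 292, 388 and 255 CPM in the larger pools and 202, 82.5 and 125 CPM in the smaller ones, and DPPA4 at 284, 173, 59.1, 86.5 and 128 CPM in the larger pools and 60.6, 115 and 70.9 CPM in the smaller ones. None of these separated the pool sizes.

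Of 24 hypoblast loci 15 were tested and 0 were called, with 9 estimates above and 6 below 0 and a median log2 fold change of 0.13. An unadjusted p under 0.05 in the quasi-likelihood test was reached by 4 of the 15 (background 10.5%). These were LAMB1, LAMC1, LAMA1 and FOXA2, the first, second and last with estimates above 0. LAMB1, a basement membrane laminin, was at 465, 449.7, 411, 271 and 575 CPM in the larger pools and 639, 563 and 799 CPM in the smaller ones. Its groups overlapped on the CPM scale but not on the TMM scale, where it was higher in the smaller pools (background 2.3%). The laminin genes LAMC1 and LAMA1 were at 37.1 to 80.6 CPM in the larger pools and 56.6 to 177 CPM in the smaller ones, and at 0.551 to 13.6 CPM in the larger pools and 0 to 0.945 CPM in the smaller ones, respectively. FOXA2, a transcription factor of endoderm, was at 0 to 0.912 CPM in the larger pools and 0 to 40.5 CPM in the smaller ones, with 0 counts in 6 of the 8 pools. FN1 (fibronectin) was at 1171, 882, 2741, 3218 and 1674 CPM in the larger pools and 1767, 2468 and 852 CPM in the smaller ones, and LRP2 (megalin) at 346, 250.0, 675, 353 and 209.7 CPM in the larger pools and 119, 232 and 398 CPM in the smaller ones. HDAC1, a deacetylase on the list, was at 893, 648, 718, 882 and 777 CPM in the larger pools and 642, 1644 and 786 CPM in the smaller ones. Of the defining factors, GATA6 was at 64.1 to 142 CPM in the larger pools and 51.9 to 104 CPM in the smaller ones, while SOX17 had 0 counts in all 8 pools and GATA4 at most 0.413 CPM.

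**Figure D5:**
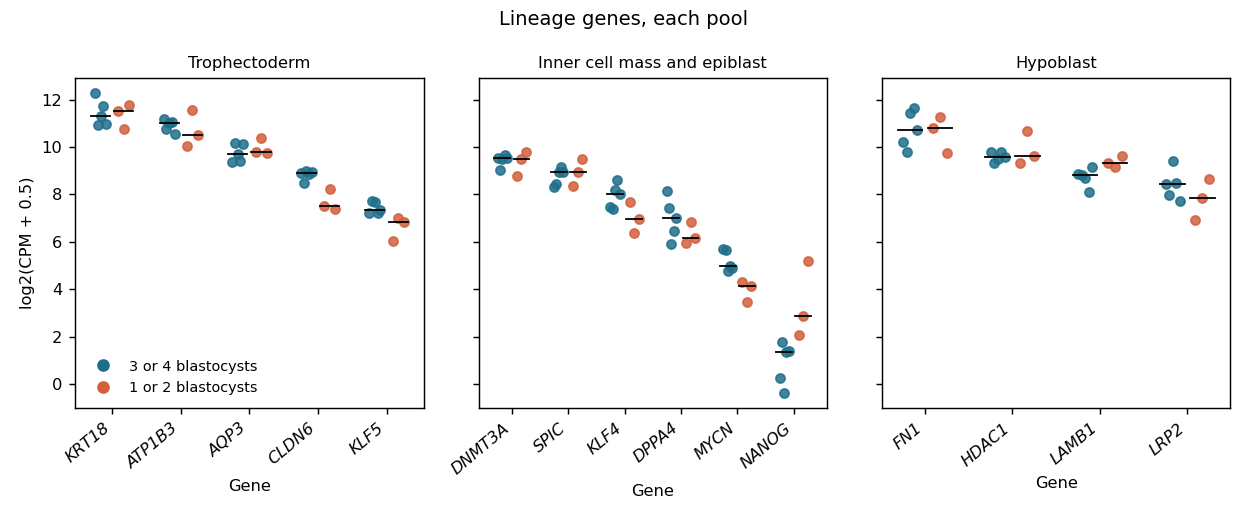
log2(CPM + 0.5) of genes of the trophectoderm, the inner cell mass and epiblast, and the hypoblast, with 1 point per pool, blue for the larger and orange for the smaller pools, and black lines at the group medians. CLDN6, KLF5 and MYCN are lower and NANOG higher in all smaller pools, whereas the ranges of the other genes overlap.

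Genes that the conceptus secretes or uses to signal to the uterus were mostly at 0 or scarce. Of 23 loci, 11 had 0 counts in all 8 pools and 6 were tested. The quasi-likelihood test called 0, and the exact test and DESeq2 called the same 1 (background 1.35% and 3.32%). That locus, SSLP1, was at 3.58, 2.77, 6.4, 8.58 and 5.32 CPM in the larger pools and 1.53, 103 and 21.3 CPM in the smaller ones, with M8.1 far above the others (adjusted p in edgeR's exact test = 0.0743, with the call kept in 3 of 8 fits that each left out a pool). IFNT2, an interferon tau gene of a family of near-identical copies, was at 0.138, 0.792, 7.9, 7.57 and 2.28 CPM in the larger pools and 0.128, 21.2 and 2.03 CPM in the smaller ones, the highest again being M8.1. AKR1B1, an aldo-keto reductase that can make prostaglandins, was at 43.1, 30.1, 50.7, 54.2 and 41 CPM in the larger pools and 41.9, 86.9 and 31.9 CPM in the smaller ones. PTGS2, the inducible cyclooxygenase, was at 26.3, 7.79, 23.2, 14.3 and 5.32 CPM in the larger pools and 7.41, 2.92 and 17 CPM in the smaller ones.

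In the list of cell cycle genes 28 of 30 loci were tested, with 0 called by the quasi-likelihood test and 1 by DESeq2 (background 3.32%). The groups of 4 loci did not overlap, all lower in the smaller pools (background 5.19% of all loci). AURKA, a mitotic kinase, was at 218, 339.8, 196, 247 and 192 CPM in the larger pools and 107, 138 and 52.7 CPM in the smaller ones (log2 fold change -0.99, quasi-likelihood adjusted p = 0.454). RRM1, a subunit of ribonucleotide reductase, was at 16.5, 16.8, 20.2, 19 and 18.8 CPM in the larger pools and 9.2, 7.1 and 7.02 CPM in the smaller ones. AURKA and RRM1 stayed apart on the TMM scale, whereas TOP2A, a topoisomerase, and TYMS, thymidylate synthase, overlapped there. On the CPM scale TOP2A was at 143, 95.1, 199, 93.7 and 105 CPM in the larger pools and 73.5, 84.5 and 23 CPM in the smaller ones, and TYMS at 154, 121, 118, 142 and 114 CPM in the larger pools and 74.5, 83 and 107 CPM in the smaller ones.

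The list as a whole did not lean the same way. Its median log2 fold change was 0.14, with 15 estimates above and 13 below 0, and 2 loci were higher and 2 lower without overlap on the TMM scale. RRM2 was at 519, 402, 498, 340.3 and 479.8 CPM in the larger pools and 437, 304 and 293 CPM in the smaller ones, PCNA, the replication clamp, at 103, 70.6, 162, 131 and 107 CPM in the larger pools and 65.7, 236 and 173 CPM in the smaller ones, and CCND2, a cyclin, at 168, 72.2, 139.7, 229 and 148 CPM in the larger pools and 125, 114 and 98.8 CPM in the smaller ones. Each of these overlapped between the groups.

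Stress response genes gave 27 tested loci of 33, with 0 called by the quasi-likelihood test and 1, PRDX1, by the exact test (background 1.35%; adjusted p = 0.0233), while DESeq2 called 2 (background 3.32%). On the CPM scale 1 was higher and 2 were lower in the smaller pools without overlap (background 0.861% and 5.19%). The estimates were 12 above and 15 below 0, with a median of -0.03. HSPA8, a constitutive chaperone, was at 1709, 1169, 1862, 1369.9 and 1197 CPM in the larger pools and 1153, 971 and 1001 CPM in the smaller ones, and SOD2, the mitochondrial superoxide dismutase, at 144, 70.6, 99.5, 127 and 77 CPM in the larger pools and 62.9, 52.6 and 43.1 CPM in the smaller ones. Both lay lower in the smaller pools on the CPM scale and overlapped on the TMM scale. HSPD1, a mitochondrial chaperonin, was at 504, 648, 1044, 479 and 409 CPM in the larger pools and 417, 209 and 184 CPM in the smaller ones, and SQSTM1, an autophagy receptor, at 239, 392, 584, 365 and 439 CPM in the larger pools and 180.4, 334 and 1135 CPM in the smaller ones.

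Genes often used as references also varied between pools. Of 16 housekeeping loci 15 were tested, with a median log2 fold change of 0.25. The quasi-likelihood test called 0 and DESeq2 called 1 (background 3.32%). On the CPM scale 1 was higher and 0 were lower in the smaller pools without overlap (background 0.861% and 5.19%). ACTB was at 5421, 5689, 9444, 4239 and 6005 CPM in the larger pools and 4065, 5751 and 5489 CPM in the smaller ones, and ACTG1 at 9575, 5588, 7884, 7579 and 6702 CPM in the larger pools and 7423, 9559 and 6426 CPM in the smaller ones. RPLP0, a ribosomal protein gene, was at 1162, 641, 608, 544 and 605 CPM in the larger pools and 474, 639.7 and 919 CPM in the smaller ones, and the higher of 2 loci of PPIA (cyclophilin A) at 871, 980.4, 471, 1013 and 906 CPM in the larger pools and 1196, 569 and 567 CPM in the smaller ones.

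Maternal transcripts stored in the oocyte were low in both groups. The summed CPM of 22 loci ran from 17.6 to 34.4 in the larger and from 21.4 to 24.8 in the smaller pools, and 0 of the 7 tested were called. ZP3, a zona pellucida gene, was at 4.13, 5.41, 0.273, 5.22 and 14.6 CPM in the larger pools and 8.18, 8.21 and 17.8 CPM in the smaller ones, and OOEP at 0, 1.98, 4.77, 9.09 and 4.71 CPM in the larger pools and 7.41, 2.09 and 0.81 CPM in the smaller ones. WEE2, a kinase of oocyte meiosis, was at 10.8 CPM in M5.2 and 13.2 CPM in M6.1 and at 0 in the other 6 pools. ZAR1L reached 8.84 CPM, in M5.2.

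Markers of cells other than the embryo were low in both groups, with exceptions in single pools. The summed CPM of 22 leukocyte loci was 17.2 to 47.7 in the larger pools and 101, 31.0 and 185 in the smaller ones, and GZMB, a granzyme gene, supplied most of it in the smaller pools, at 7.99, 5.94, 38.8, 17.7 and 25.5 CPM in the larger pools and 96.2, 18.5 and 172 CPM in the smaller ones. GZMB was called by the exact test (background 1.35%, adjusted p = 0.0682) but not by the quasi-likelihood test (adjusted p = 0.401). DESeq2 called it too (background 3.32%), with 2.58 ± 0.79 (SE) on the log2 scale and an adjusted p of 0.0515. With each pool left out in turn the exact test kept the call in 3 of 8, the highest adjusted p being 0.437. In the 7 control pools GZMB ran from 6.07 to 173 CPM, with a median of 25.1. PTPRC (CD45), which defines leukocytes, was at 6.68 CPM in M8.1 and at most 0.505 CPM elsewhere, and TYROBP, CD3E, NKG7 and LAPTM5 had 0 counts in all 8 pools. CSF1R, the receptor of a macrophage growth factor, had counts in all 8 pools, at 4.96, 3.83, 3.41, 5.22 and 10.9 CPM in the larger pools and 0.639, 5.43 and 11.3 CPM in the smaller ones. CD14, a marker of monocytes, was at 0.276, 2.77, 0.136, 1.18 and 10.5 CPM in the larger pools and 1.15, 0 and 0 CPM in the smaller ones. The part of other cells in the differences above was not tested.

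Granulosa, uterine, stromal and sperm markers gave 4, 1, 5 and 4 tested loci, with 0 called in each list. The granulosa sum was 17.4 to 136 CPM in the larger and 35.5 to 92.0 CPM in the smaller pools, mostly from NR5A2 and CYP19A1. NR5A2, a nuclear receptor that embryos also express, was at 23.3, 11.5, 78.1, 14.3 and 35.9 CPM in the larger pools and 6.52, 36.5 and 78.2 CPM in the smaller ones. CYP19A1, the aromatase, was at 10.5, 2.38, 48.4, 28.3 and 8.2 CPM in the larger pools and 10.1, 2.37 and 10.1 CPM in the smaller ones. STAR, a cholesterol carrier, was at 4.27, 2.64, 7.36, 4.38 and 5.17 CPM in the larger pools and 1.15, 0 and 0.675 CPM in the smaller ones. These did not overlap (background 5.19%), but the smaller pools had only 9, 0 and 5 counts. GREM1 was at 16.2 CPM in M7.1 and at most 0.954 CPM elsewhere. FSHR, the receptor for follicle-stimulating hormone, and AMH, a hormone of granulosa cells, had 0 counts in all 8 pools. The uterine sum was 1.45 to 26.3 against 1.02 to 1.39 CPM, of which PGR, the progesterone receptor, was 24.9 CPM in M6.1, with PAX8, MUC1 and OVGP1 at most 3.03 CPM.

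The stromal and blood sum was 40.1 to 69.6 CPM in the larger and 21.5 to 84.7 CPM in the smaller pools. PECAM1 was at 44.1, 35.2, 36.5, 26.6 and 18.8 CPM in the larger pools and 14.4, 39.7 and 22.4 CPM in the smaller ones, ALAS2, an enzyme of haem synthesis, at 15.7, 6.6, 0, 0.673 and 17 CPM in the larger pools and 2.3, 6.12 and 45.5 CPM in the smaller ones, COL1A2 at 7.85, 1.45, 16.1, 4.04 and 10.3 CPM in the larger pools and 2.94, 5.99 and 15.9 CPM in the smaller ones, and ACTA2 at most 8.35 CPM, in M8.1. VIM had 0 counts in all 8 pools. The sperm sum was 6.47 to 36.8 against 23.7 to 124 CPM. TNP1, a transition protein of sperm chromatin, was at 5.79, 0.792, 23.3, 15.3 and 25.1 CPM in the larger pools and 121, 22.7 and 18.8 CPM in the smaller ones. ODF2 reached 17.6 CPM in M5.1 and at most 1.22 CPM elsewhere. It was lower in the smaller pools without overlap on the CPM scale (background 5.19%), and its groups overlapped on the TMM scale. PRM1 and PRM2, the protamines, had 0 counts in all 8 pools, and TNP2 and SPATA18 stayed at or under 9.12 CPM.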

How the data were processed

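RNA sequencing of 16 amplified pools was deposited as 1 table of read counts per pool, and the 8 tables of the methionine-rich treatment were analysed, with 7 control pools beside them. According to the methods, the authors aligned single-end reads to bosTau7 with TopHat2 2.0.4, assembled transcripts with Cufflinks 2.0.2 and made the deposited counts with htseq-count, without normalization. Reads of near-identical copies and of overlapping genes may be split or lost in such counting. Of 22552 rows, 376 repeated 182 loci under several names, and each locus was entered once. No reference of that build was at hand, so coordinates and sequences are not given here.

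Numbers of blastocysts and the order of the pools by RNA were taken from the study's supplementary table. Pools were compared by edgeR 4.0.16 (TMM, glmQLFit, glmQLFTest; R 4.3.3) with Benjamini-Hochberg adjustment, calling loci at an FDR under 0.10 with at least 2-fold difference, and single values by two-sided exact permutation tests over the 56 assignments. edgeR's exact test, DESeq2 1.42.0 and limma 3.58.1 (voom, cow as a random effect) were alternatives, as were other scalings and filters, the cow, the pool number or the rank of RNA concentration as a term, and each pool left out. Alternatives added after seeing the data were other scalings and filters for the loci that do not overlap, a CPM minimum for confined loci and pools left out of edgeR's exact test. Correlations used log2(CPM + 0.5). Fold changes are smaller over larger pools. The code was tested on simulated counts of much lower dispersion than the data, whose common dispersion was 0.929. That check does not show what the fits could recover in these pools.

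Named genes were the 4 highest members of each list, members called or not overlapping, the 10 annotated loci of smallest p that did not overlap, and the leading confined loci (3 per pool) and missing loci (2 per pool), without a few that are not reported here; POU5F1, SOX2, CDX2, GATA3, GATA4, GATA6, SOX17, TFAP2C, FOXA2, LAMA1, LAMC1 and other markers at or near 0 were named besides, after their values were seen. Pools, members and lists were chosen with earlier results of these data known. Floors cover counting error only, whereas the SD and SE values include the spread between pools. No column of per-sample values was left unused.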

Additional observations from a re-analysis of the deposited data

Results flagged for a closer look

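Among the 5 larger pools, a pool standing apart from the other 4 by Dixon's criterion at the 95% level was looked for in 37 values, and 5 were found. Chance alone gives about 1 in 20 for normally distributed values. Skewed values near 0, such as those of TSPY, can pass more often, so no conclusion is drawn from the number found. M6.1 had 38 missing loci, the highest of the 5, and a Spearman correlation of 0.828 with the other pools, the lowest. M6.1 also had the highest CPM of TSPY, 9.27, while the other 4 were at 0. ODF2 was highest in M5.1, at 17.6 CPM. CLDN6 was lowest in M5.2, at 358 CPM. Groups of 3 were not examined in this way.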

How the results depend on the processing

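The quasi-likelihood count of 0 became 4 with every locus of at least 1 count (LOC100850994, C23H6orf47, ROM1 and CUFF.2404.1), 1 with at least 10 counts in every pool (LOC100850994), 1 with the rank of RNA concentration as a term (E2F8), 1 without cow 7 (ROM1) and 0 to 1 with each pool left out, the 1 being ROM1 without M7.1. It was 136 with edgeR's exact test (52 to 252 with each pool left out) and 297 with DESeq2, and stayed 0 under the other 7 fits of all pools. A replicate block made of the pool numbers gave 1 (CUFF.2640.1); the numbers only name the pools of a cow. Loci not overlapping numbered 232 higher and 324 lower on the TMM scale, 262 and 300 with DESeq2's size factors, and 64 (1.16%) and 306 (5.57%) of the 5497 loci that reached 10 counts in each of the 8 pools.

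The difference in confined loci (larger minus smaller, 15.1) was -9.47 at 30 counts, -10.1 at 20 CPM and -48 between M7.2 and M7.1. For the share of the most abundant loci it was -3.31 points with 10 loci and -3.32 with 1000, against -4.90 with 100. Of 563 alternative fold changes of 26 genes, 535 kept their direction and side of the threshold, 26 passed it where the reported value had not, and 2 reversed with the cow as a block, which leaves only cow 7 to compare: HSPA8 at 0.23 and SSLP1 at -1.50. The causes were not tested. With 5 and 3 pools no exact p can fall below 0.0357, without a larger pool 0.0571, without a smaller one 0.0952 and without cow 7 0.133.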
